A study of Homo sapiens with 6 samples.

Results

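The transcripts of p53-linked metabolism and redox control followed here, in lung cancer cells after a pulse of cisplatin, were those of SESN1, TP53I3, TIGAR and 1 probe set without a gene symbol. The probe table gave each of the 3 named genes exactly 1 probe set, so the set held 4 of the 8746 probe sets on each array besides controls, and all 4 were among the 6559 bright enough to be tested. The members were chosen on their difference between the cisplatin and control arrays, so that difference is described here without a test. The last member carries no symbol in the probe table used here. It is recorded for the array design as ferredoxin reductase, an assignment that was not checked here, so it is called the unnamed probe set in the text and shown by its probe set ID in the figures.

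The arrays measured messenger RNA of A549 cells, an established human lung adenocarcinoma line. In the cisplatin group the cells were held for 1 hour in 50 µM cisplatin, which forms platinum crosslinks in DNA. The control group had the same hour in regular medium without drug (0 µM), and both groups were then washed and kept for 10 hours in medium without drug. Each group had 3 arrays, which per the series' design text came from 3 independent experiments, on 1 cell line, 1 dose and 1 time.

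The transcription factor p53 is known above all for arrest and death genes, but it also switches on genes that change how a damaged cell handles nutrients and oxidants. Sestrins such as SESN1 bind the GATOR complex upstream of the growth kinase mTORC1 and restrain it when amino acids are scarce, and they also take part in antioxidant defence. TP53I3, also called PIG3, is an NADPH-dependent quinone oxidoreductase that was found as a gene induced by p53. TIGAR is a phosphatase that lowers fructose 2,6-bisphosphate, which slows glycolysis and favours the pentose phosphate pathway, a source of NADPH.

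The promoter windows of the 3 named genes are shown because p53 acts by binding DNA near its target genes. RefSeq on GRCh38.p14 lists 3 transcription starts for SESN1 and 1 each for TP53I3 and TIGAR, and the window was the 250 bases before each start. The half-site of the p53 consensus is 10 bases long and reads the same on both strands. Capitals mark a pair of adjacent half-sites whose core was intact in both, with at most 3 mismatches in the 20 bases. The third start of SESN1 (chr6:109008989-109009238, minus strand), the start of TP53I3 (chr2:24084835-24085084, minus strand) and that of TIGAR (chr12:4320963-4321212, plus strand) had these windows, each written 5′ to 3′ on the strand of its gene.
SESN1, start 3: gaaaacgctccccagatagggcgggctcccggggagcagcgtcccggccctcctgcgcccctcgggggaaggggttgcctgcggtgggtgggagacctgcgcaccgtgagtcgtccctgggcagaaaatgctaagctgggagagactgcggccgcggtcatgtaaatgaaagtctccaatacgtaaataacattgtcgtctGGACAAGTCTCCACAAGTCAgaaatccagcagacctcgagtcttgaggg
TP53I3: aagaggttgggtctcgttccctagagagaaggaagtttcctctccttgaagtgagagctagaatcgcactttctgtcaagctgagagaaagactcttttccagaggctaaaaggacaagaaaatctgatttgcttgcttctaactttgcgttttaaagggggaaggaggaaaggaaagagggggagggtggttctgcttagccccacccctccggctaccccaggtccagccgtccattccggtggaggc
TIGAR: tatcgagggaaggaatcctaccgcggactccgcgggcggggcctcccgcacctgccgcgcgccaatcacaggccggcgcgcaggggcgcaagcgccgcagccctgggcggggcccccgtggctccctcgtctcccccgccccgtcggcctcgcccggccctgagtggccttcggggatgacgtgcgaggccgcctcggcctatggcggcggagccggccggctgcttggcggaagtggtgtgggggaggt

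The SESN1 window at the third start held 1 exact half-site, the first 10 of the capital letters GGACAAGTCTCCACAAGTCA. The 10 letters after it kept the core of a second half-site and brought the mismatches of the pair to 3. The pair lies at chr6:109009018-109009037, and 29 bases separate it from the start. An exact half-site was found in 5.57% of 35116 promoter windows of the same length, and a pair with at most 3 mismatches in 0.356% of them. The limit of 3 mismatches was raised from 2 after the windows had been seen, and 0.142% of windows held a pair at 2. The other 2 SESN1 windows and those of TP53I3 and TIGAR held 0 exact half-sites and 0 such pairs, which says only that these letters are not in these windows.

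TP53I3 is known for a p53-responsive repeat of short units near its start. The repeat was searched here with the loose pattern TGNCC, where N is any base, so a match need not be a unit of that repeat. The TP53I3 window held 1 copy of TGNCC and no adjacent copies on either strand, as did the TIGAR window. In all windows, 2 or more adjacent copies occurred in 2.14%. The windows end at the start, so a repeat after the start could not be found, and its absence here does not show that the gene lacks it. The windows also differed in composition. TIGAR had 76.8% G and C and 3 GC boxes (GGGCGG on either strand), and TP53I3 had 51.2% and 0 GC boxes. The 3 SESN1 windows had 74.4%, 71.6% and 60.4% in the order of the starts, with 7, 5 and 1 GC boxes. A GC box was present in 42.6% of all windows. A TATA box (TATAAA on either strand) was found in 10.7% of all windows and in 0 of these 5. These matches are descriptions of letters, and no binding was measured here.

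All 4 probe sets were brighter on every cisplatin array than on any control array. The unnamed probe set differed most, at 3.92 times its control mean, followed by SESN1 at 2.44 times, TIGAR at 1.88 times and TP53I3 at 1.55 times. In these bulk samples a strong change in some cells and a weaker one in all cells cannot be told apart.

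**Figure D1:**
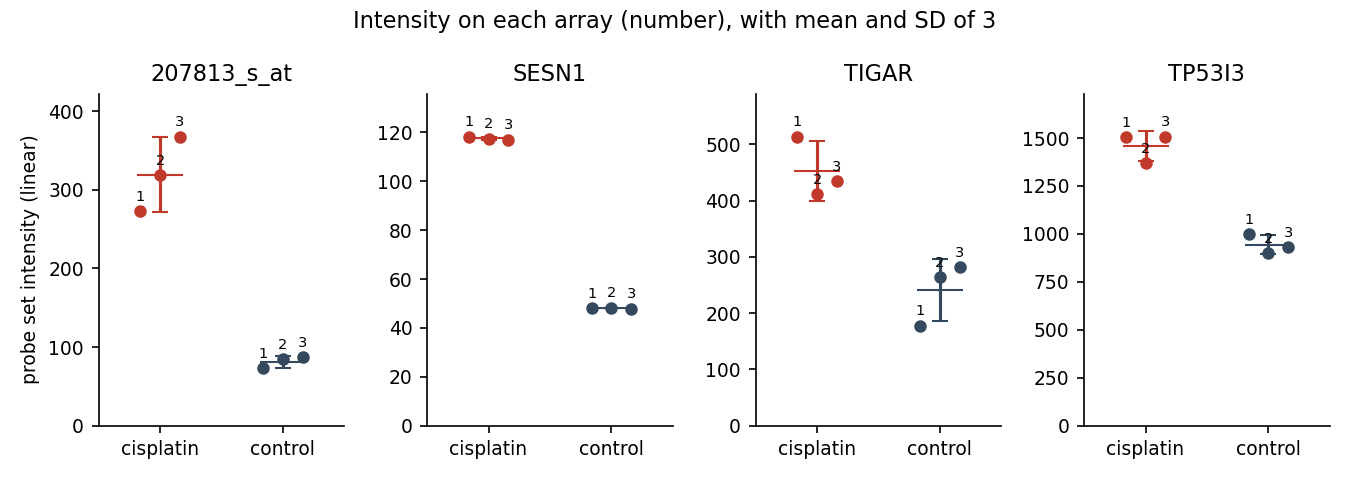
Intensity of the 4 probe sets (linear scale from 0, each panel with its own axis) on the 3 cisplatin and 3 control arrays, numbered by replicate. Long horizontal bars with error bars are the mean and SD of 3 arrays. In every panel the 3 cisplatin points lie above the 3 control points, and the SESN1 points of a group nearly coincide.

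SESN1, the sestrin, had intensities of 118.2, 117.5 and 117.0 on cisplatin arrays 1 to 3, against 48.2, 48.2 and 47.9 on control arrays 1 to 3. The arrays of a group were nearly equal, and the groups were far apart. The means were 117.5 ± 0.594 in cisplatin cells and 48.1 ± 0.147 in control cells (SD, n = 3 each). The gene spans 110538 bases on chromosome 6 (GRCh38.p14, 108984309 to 109094846). All 9 ratios of a cisplatin to a control array lay between 2.43 and 2.47. On the log2 scale used for the fit, where an offset of 11.8 was added to every intensity, the difference was 1.11. The offset pulls dim probe sets together, so this corresponds to 2.16 times, less than the ratio of the mean intensities.

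TP53I3, the quinone oxidoreductase, had intensities of 1504, 1368 and 1506 on the cisplatin arrays and 997, 899.7 and 931 on the control arrays. Cisplatin 2 was the lowest of its group and still stood 370.3 units above control 1, the highest control. The means were 1459 ± 79.3 and 943 ± 49.8 in cisplatin and control cells (SD, n = 3 each). The single-array ratios ran from 1.37 to 1.67, and the log2 difference was 0.62 (SE 0.08). TP53I3 is a short gene, with a span of 7402 bases on chromosome 2 (24077433 to 24084834).

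TIGAR, the fructose 2,6-bisphosphatase, had intensities of 513.6, 412 and 434 on the cisplatin arrays, against 178, 264 and 281 on the control arrays. Control 1 was the low array of its group and cisplatin 1 the high array of the other. The means were 453 ± 53.4 in cisplatin cells and 241 ± 55.6 in control cells (SD, n = 3 each). The single-array ratios were the widest in relative terms for a named gene, from 1.46 to 2.89, and the log2 difference was 0.90 (SE 0.17). The gene spans 38816 bases on chromosome 12 (4321213 to 4360028). A gauge of RNA integrity, the 3′ over 5′ signal of the ACTB controls, was lowest on control 1 and highest on cisplatin 1 (2.20 and 3.67, with 2.67 to 2.98 on the other 4 arrays). The part of this in the TIGAR difference was not tested. Without control 1 the TIGAR log2 difference was 0.70, without cisplatin 1 it was 0.81, and without control 1 and cisplatin 2, the pair that stood apart on the first principal component, it was 0.77.

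The unnamed probe set had intensities of 273, 318 and 368 on the cisplatin arrays, against 72.8, 84.6 and 87.0 on the control arrays. The lowest cisplatin array was 3.14 times the highest control array, and the widest single-array ratio was 5.05. The means were 319.6 ± 47.4 in cisplatin cells and 81.5 ± 7.61 in control cells (SD, n = 3 each). The log2 difference was 1.82 (SE 0.15), or 3.54 times with the offset.

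**Figure D2:**
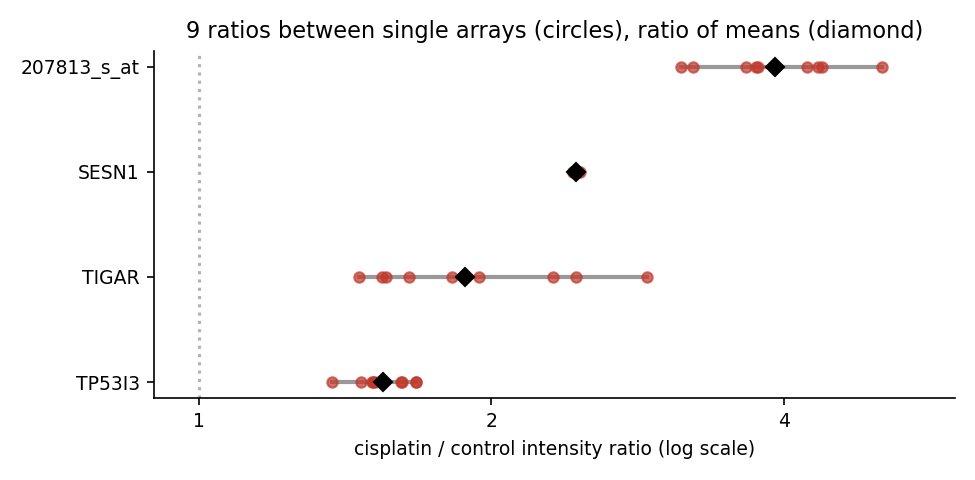
Ratio of cisplatin to control intensity (log axis) for each member. Circles are the 9 ratios between single arrays, the grey line is their range and the diamond is the ratio of the group means. The range of TIGAR, 1.46 to 2.89, overlaps those of SESN1 and TP53I3, and the range of the unnamed probe set (top row), from 3.14 upward, lies above the other 3.

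The order of the folds is described here by the single-array ratios, without a test, as the members were chosen on this contrast. The ratios of a member share arrays, so they are not independent. The single-array ratios of the unnamed probe set lay above those of the other 3 members, and those of SESN1 lay above those of TP53I3. TIGAR could not be placed apart from SESN1 or TP53I3, since its ratios covered all of the SESN1 range and part of the TP53I3 range. Among all 6559 tested probe sets, ordered by log2 difference from the largest rise down, the unnamed probe set was at place 3, SESN1 at 11, TIGAR at 17 and TP53I3 at 49. The median log2 difference of all tested probe sets was 0.04.

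Groups that do not overlap in this direction were found for 4 of 4 members and for 487 of all 6559 tested probe sets (7.42%). In limma, with Benjamini-Hochberg adjustment over all tested probe sets at 0.05, 14 probe sets were higher after cisplatin (0.213%) and 5 lower (0.0762%), 19 in all (0.29%). As the members were chosen on this contrast, nothing is read from the count of members, and no call of a member is given.

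The members differed widely in how tightly their arrays agreed. The pooled SD within groups on the log2 scale was 0.0053 for SESN1, 0.077 for TP53I3, 0.17 for the unnamed probe set and 0.27 for TIGAR, with a median of 0.19 over all tested probe sets. The SESN1 value was the lowest of all 6559, and the next lowest was 0.011. Probe sets within 0.5 log2 units of the SESN1 mean had a median SD of 0.21. Its own arrays would give the log2 difference a standard error of 0.0043, and the fit, which draws each spread toward that of probe sets of like intensity, gave 0.13. TIGAR lay on the other side, with 0.27 against a median of 0.16 at its intensity.

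**Figure D3:**
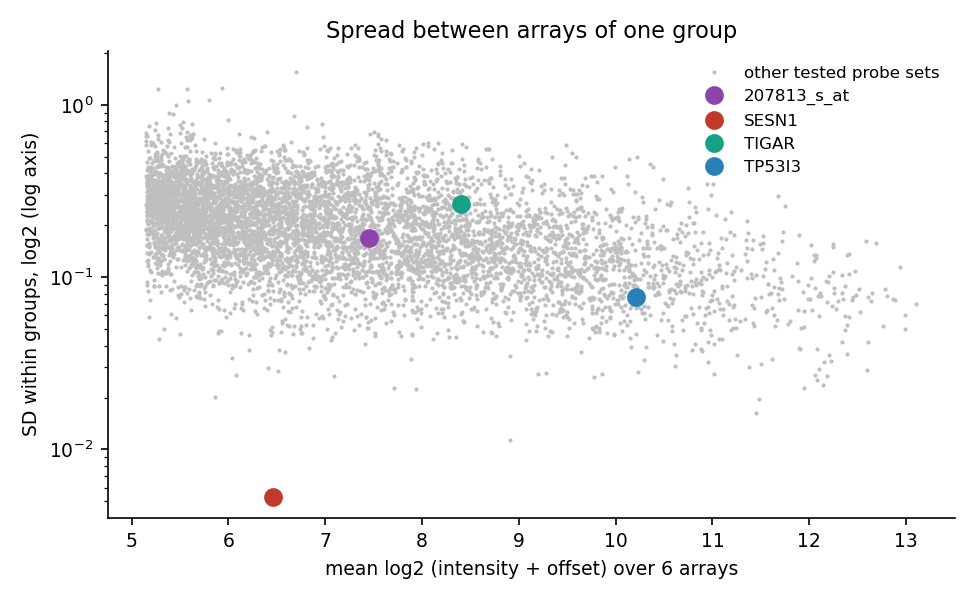
SD within groups (log2, log axis) against mean log2 intensity with the offset, for each of the 6559 tested probe sets. SESN1, at 0.0053, lies below every other point, TIGAR lies in the upper part of the cloud at its intensity, and TP53I3 and the unnamed probe set lie inside it.

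The deviations of single arrays from their group mean did not run in parallel across the members. Control 1 was the lowest control for TIGAR and the unnamed probe set, by 0.39 and 0.14 on the log2 scale, and the highest for TP53I3, by 0.08. Cisplatin 1 was the highest cisplatin array for TIGAR, by 0.18, and the lowest for the unnamed probe set, where its deviation was -0.21. No single array was therefore high or low for all 4.

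The genes whose pattern was most like that of each member were taken as the 3 with the highest Pearson r of log2 intensity over the 6 arrays, among 5813 other genes. The members share the arrays and the contrast with these genes, so r mostly reflects the separation of the groups and is given as a description. SESN1 was most like CDKN1A, the cyclin-dependent kinase inhibitor p21 (r = 0.999), the death receptor gene FAS (0.995) and S100A13 (0.990). TIGAR was most like the receptor tyrosine kinase gene MST1R (r = 0.995), PCNA, the replication clamp (0.988), and HSD17B7 (0.986). For TP53I3 they were CABYR (r = 0.986), EMP1 (0.983) and PROCR (0.982), and for the unnamed probe set they were ACAD8 (0.991), the damage recognition gene XPC (0.988) and TRIM32 (0.988). A high r says nothing about size, since S100A13 had a log2 difference of 0.13 and CDKN1A 2.42. CDKN1A, with the largest log2 difference of the genes named here, had 1467, 1370 and 1429 on the cisplatin arrays and 249, 281 and 241 on the control arrays (adjusted p = 4.74e-06 in limma). Between 26 and 36 genes had an r above 0.95 with a member.

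The pathway genes around each member were then read from 8 lists, members left out, with each gene represented by its brightest tested probe set. Some genes stand in more than 1 list. Against the background shares above, 0 genes were called higher in any list, and 1 gene was called lower. The list medians ran from -0.06 to 0.09 on the log2 scale, beside 0.04 over all tested probe sets. Of all tested probe sets, 60.5% had a log2 difference above 0, and 330 (5.03%) had an unadjusted p under 0.05 in limma.

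Around SESN1, 19 of 39 other listed genes of the sestrin, AMPK and mTORC1 pathway were tested. In limma 0 passed, 0 had an unadjusted p under 0.05, and the log2 differences ran from -0.26 to 0.30. SESN2 and SESN3, the other sestrins, were not among the tested genes. EIF4EBP2, a translation repressor that mTORC1 phosphorylates, had 106.0, 104.9 and 106.3 on the cisplatin arrays, against 89.9, 87.6 and 74.3 on the control arrays. Its groups did not overlap, but its log2 difference of 0.30 did not pass (adjusted p = 0.976 in limma). RRAGC, a Rag GTPase that brings mTORC1 to the lysosome, averaged 173 ± 4.30 in cisplatin cells and 151 ± 7.08 in control cells (SD, n = 3 each, log2 0.18).

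Around TP53I3, 18 of 26 other reductase and NADPH genes were tested and 0 passed in limma, with 1 of 18 at an unadjusted p under 0.05, near the 5.03% of all tested probe sets. CRYZ, a quinone oxidoreductase of the same enzyme family, had 775, 611 and 648 on the cisplatin arrays and 447, 908 and 967 on the control arrays. Its groups overlapped and control 1 lay far below the other controls, so its log2 difference of -0.12 turned to 0.03 without control 2 and 0.08 without control 3. IDH2, the mitochondrial NADP-dependent isocitrate dehydrogenase, was the gene with the lowest unadjusted p (log2 0.30, adjusted p = 0.937 in limma). CYB5R3, a cytochrome b5 reductase, had a log2 difference of 0.21, with overlapping groups, and of 0.11 without control 1.

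Around TIGAR, 15 of 23 other genes of fructose bisphosphate control and hexose phosphate metabolism were tested, and 0 passed in limma or had an unadjusted p under 0.05. PFKFB3, which makes the fructose 2,6-bisphosphate that TIGAR removes, had 1518, 1412 and 1506 on the cisplatin arrays, against 1597, 1614 and 1605 on the control arrays. Every cisplatin array lay below every control array, as for 3.57% of all tested probe sets, yet the log2 difference was small, -0.12 (SE 0.07, adjusted p = 0.999 in limma). PFKFB1, another enzyme of that pair of reactions, was dim and overlapped between groups (log2 0.37, and 0.18 without control 1). Of the genes listed as histidine phosphatase relatives of TIGAR, 9 of 14 were tested, with 0 past the threshold and 0 at an unadjusted p under 0.05. That list and its count of tested genes include ACP1, a phosphatase of another family.

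The list of the mitochondrial ferredoxin chain, iron-sulfur assembly and iron handling had 9 of 29 genes tested, of which 0 passed in limma. A log2 difference above 0 was found for 8 of the 9, beside 60.5% of all tested probe sets. An unadjusted p under 0.05 in limma was found for 2 of the 9, CYP27A1 and FDX1, beside 5.03%. The list was chosen with earlier results of these data known, so nothing is read from these shares. CYP27A1, a mitochondrial sterol hydroxylase that takes electrons from ferredoxin, had 246, 326 and 257 on the cisplatin arrays, against 155, 157 and 149 on the control arrays. The groups were well apart, at 276 ± 43.3 in cisplatin cells and 154 ± 3.91 in control cells (SD, n = 3 each), and the log2 difference of 0.79 missed the threshold (SE 0.14, adjusted p = 0.0639 in limma). FDX1, a mitochondrial ferredoxin, averaged 130 ± 2.96 in cisplatin cells and 94.7 ± 10.3 in control cells (SD, n = 3 each). Its groups did not overlap either, with a log2 difference of 0.42 and an adjusted p of 0.640 in limma.

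Of 40 other genes known as p53 targets in metabolism and redox control, 23 were tested and 0 passed in limma, with 1 of 23 at an unadjusted p under 0.05, near the 5.03% of all tested probe sets. That gene was GPX1, a glutathione peroxidase, with 308.6 ± 70.6 in cisplatin cells and 220 ± 50.4 in control cells (SD, n = 3 each, log2 0.47, adjusted p = 0.936 in limma). Its log2 difference was 0.30 without cisplatin 2 and 0.28 without control 3. PHLDA3, an inhibitor of AKT signalling, had a log2 difference of 0.49 that rested largely on cisplatin 2, and it was 0.21 without that array and 0.32 without control 3. The listed targets SESN2, GLS2, RRM2B, TP53INP1 and DRAM1 were not among the tested genes. The list was also not split by whether p53 raises or lowers a gene, so its counts do not speak for induced targets alone. The peroxide and thiol defence list had 22 of 30 genes tested, 0 past the threshold and the same GPX1 at an unadjusted p under 0.05. TXN, the cytosolic thioredoxin, had a log2 difference of 0.11.

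Of 24 genes of p53 and its regulators, 14 were tested. AURKA, a mitotic kinase that phosphorylates p53, was the 1 gene to pass in any list, and it fell. Of its 2 tested probe sets only the brighter is described here. It had 778, 802 and 886 on the cisplatin arrays, against 1406, 1309 and 1386 on the control arrays (log2 -0.73, SE 0.09, adjusted p = 0.00870 in limma). The call was lost without cisplatin 1, control 2 or control 3 (adjusted p = 0.0598, 0.0565 and 0.0585), without the intensity trend (0.125) and when replicate numbers were fitted as blocks (0.131). The other 13 genes did not pass, and the list median was -0.06.

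**Figure D4:**
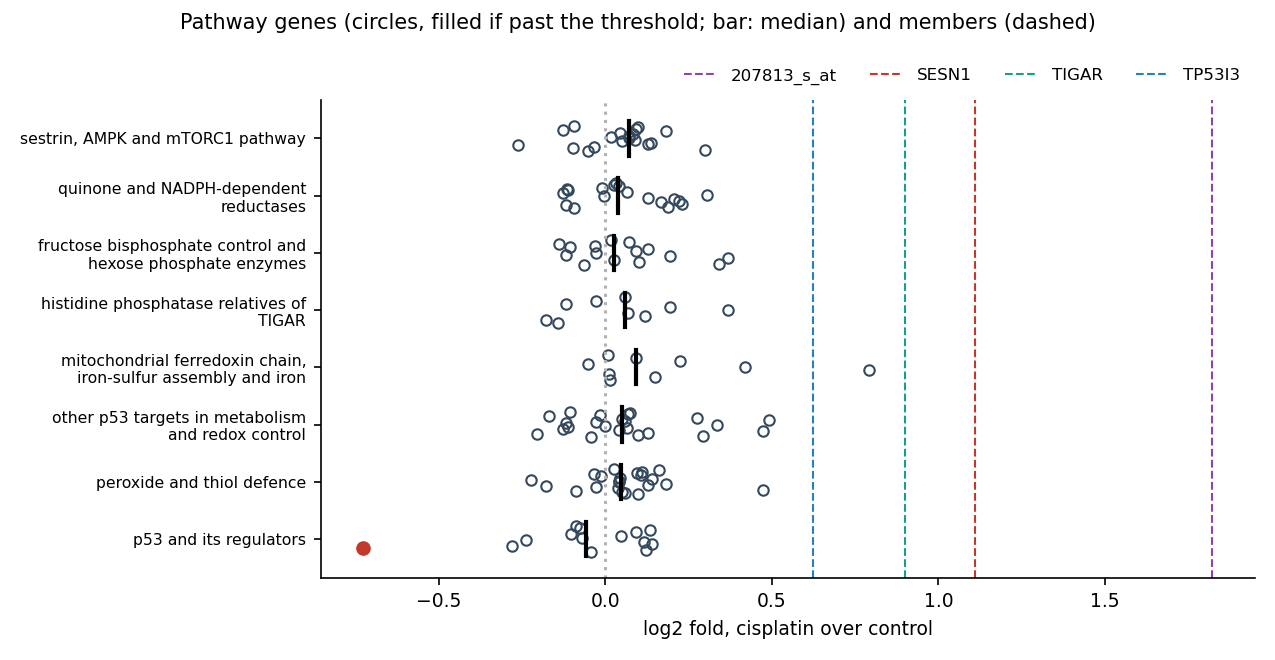
Log2 difference of cisplatin over control for each tested gene of the 8 lists, members left out. Each circle is a gene, filled where it passed the threshold in limma (AURKA, at -0.73), the black bar is the list median and dashed lines give the 4 members. The list medians lie between -0.06 and 0.09. The highest listed gene, CYP27A1 at 0.79, lies between TP53I3 and TIGAR.

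The median intensity per array was 59.3 to 67.2 with cisplatin and 57.2 to 59.4 in controls, and precision is limited by having only 6 arrays. The label was checked against markers. The keratin genes KRT18, KRT8 and KRT7 and the reductase genes AKR1C1, AKR1C3 and NQO1 averaged 1950 to 5810 in either group, while the keratin gene KRT19 averaged 143 with cisplatin and 131 in controls and the epithelial genes EPCAM and CDH1 were dim, at 32.7 to 37.3. Over the 9 tested epithelial markers the summed intensity was 17509 to 20674 with cisplatin and 18023 to 21948 in controls. Of 13 markers of blood, endothelial and stromal cells, 5 were tested, with sums of 238 to 331 and 267 to 319. None of the 14 tested markers passed in limma or had an unadjusted p under 0.05. The control means of SESN1, 48.1, and of the unnamed probe set, 81.5, lie within the range of the 5 foreign markers (37.8 to 102), so readings of this size need not show expression, and the folds of both rest on them. For the unnamed probe set this holds only through COL1A1, at 102, since the next marker, PECAM1, had a control mean of 61.2. Of these foreign markers 9 were measured, and the range is that of the 5 bright enough to be tested. GAPDH had a log2 difference of -0.04 (SE 0.06).

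The size of the folds depended on the offset for the 2 members dimmest in control cells. With an offset 4 times larger the log2 difference was 1.51 for the unnamed probe set and 0.79 for SESN1, and with no offset 1.97 and 1.29. TIGAR moved less, to 0.81 and 0.93, and the larger offset put it before SESN1. Of the 15 alternative settings, 4 (both filters, the fit without an intensity trend and the replicate block) cannot alter a log2 difference here, and median centring moves all members alike. Of the other 10, 9 kept the order of the unnamed probe set, SESN1, TIGAR, TP53I3. The 4 differences stayed above 0 in all 15, a direction that the choice of the members fixes.

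**Figure D5:**
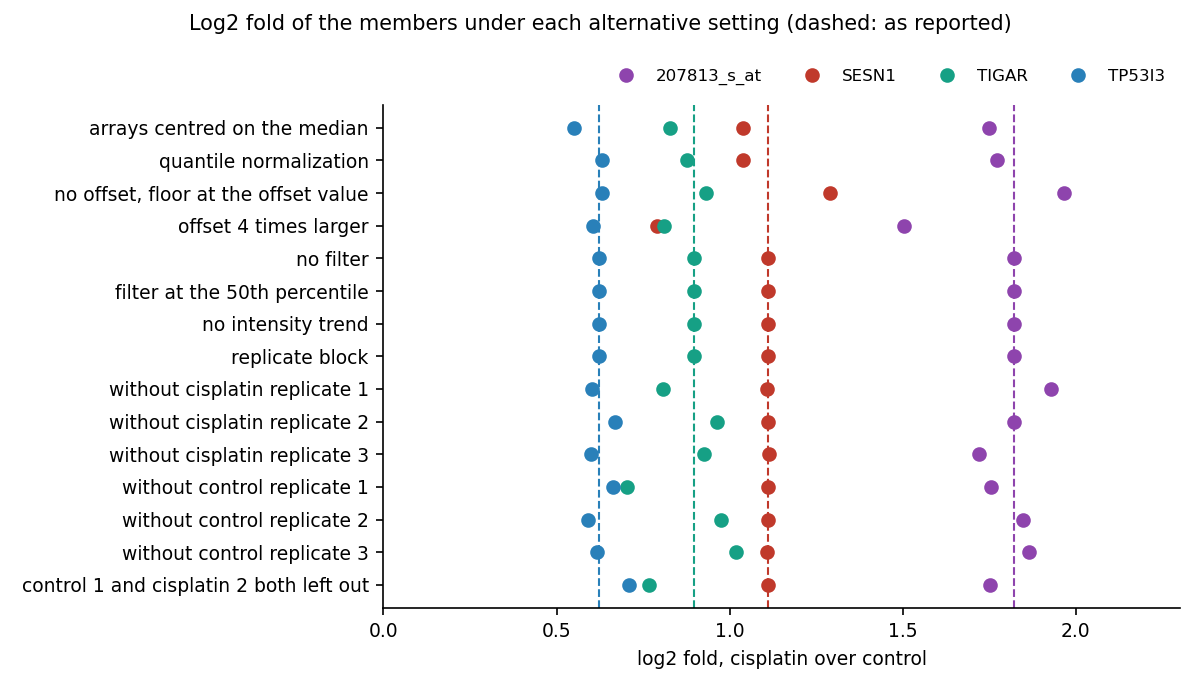
Log2 difference of cisplatin over control for each member under 15 alternative settings (rows), 4 of which cannot move it. Dashed lines are the values as reported, 1.82, 1.11, 0.90 and 0.62. SESN1 moves with the offset and the scaling and hardly with any single array, and TIGAR moves most with control 1, to 0.70 without it.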

How the data were processed

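The deposited table holds linear intensities, 1 value per probe set and array. Of the values, 723 were at or below 0, as a signal with background subtracted can be. Target was biotin-labelled and primed with oligo-dT, per the labels. How the authors summarised or scaled the arrays is not given in the sources used here. Values below 0 were set to 0, and 11.8, the 10th percentile of positive values, was added before log2. Since upper quartiles differed by at most 0.154 on that scale (limit 0.3), no scaling was applied. Apart from 47 controls there were 8746 probe sets, and the 6559 whose mean log2 reached the 25th percentile were tested in limma 3.58.1 (R 4.3.3) with an intensity trend, two-sided, with 4 residual degrees of freedom. Standard errors are those of the fit unless stated.

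Of the 8746 probe sets, the platform's probe table gave 7840 a single symbol, 388 several and 518 none. Promoter windows came from RefSeq (GRCh38.p14), and 3 of 4 members matched. Figures were drawn with matplotlib 3.10.9. The fit was tested on simulated data in which every probe set had the same spread, unlike on the real arrays. That run therefore does not show how reliable the calls made here are. The members, the lists and the rule for named genes were chosen with earlier results of these data known. The rule named all members, 10 set genes where tested, in each list the 2 largest rises and falls past the threshold or otherwise the 2 lowest p-values, and 3 genes per member by likeness. Alternatives covered scaling, offset, filter, intensity trend, replicate block, single arrays left out, and gene means in place of the brightest probe set. Gene means could change no list without AURKA, since no other listed gene had more than a single tested probe set. They could not remove the AURKA call either, as a gene counted as called if any of its probe sets was. The labels do not say that equal replicate numbers share an experiment, and the deviations of same-numbered arrays correlated at -0.562, -0.312 and -0.115.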

Additional observations from a re-analysis of the deposited data

How the results depend on the processing

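The members, chosen for a rise, stayed above 0 under all 15 alternatives, 4 of which cannot alter a log2 difference. The SESN1 log2 difference of 1.11 was 1.04 with arrays centred on the median, 1.04 with quantile normalization, 1.29 with no offset and 0.79 with the offset 4 times larger. That of the unnamed probe set was 1.51 with the larger offset, and that of TP53I3 was 0.71 without control 1 and cisplatin 2. Leaving out 1 array gave 1.107 to 1.114 for SESN1, 0.59 to 0.67 for TP53I3, 0.70 to 1.02 for TIGAR and 1.72 to 1.93 for the unnamed probe set. Against 19 probe sets past the threshold, 11 passed after median centring of the arrays, 8 when the intensity trend was dropped and 5 with the replicate block, and the cause was not tested. With 1 array left out the count was 6 to 18. It was 6 without cisplatin 1, 11 without cisplatin 2 and 7 without cisplatin 3. For the controls it was 18 without control 1, 6 without control 2 and 8 without control 3. Without both control 1 and cisplatin 2 it was 20. The call of AURKA, the 1 in the list of p53 and its regulators, gave a count of 0 without the intensity trend and 0 with the replicate block, and 0 to 1 with 1 array left out. The other 7 lists had 0 calls under every alternative run, though gene means could not alter them. Nothing in the labels says that equal replicate numbers share an experiment. The log2 differences of CRYZ (-0.12) and GAPDH (-0.04) changed sign, and with 1 array left out CRYZ ran from -0.47 to 0.079 and GAPDH from -0.086 to 0.0091. Signal near background limits SESN1 and the unnamed probe set, whose control levels lie within the range of tested markers the line should lack. For the unnamed probe set this holds only through COL1A1.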
